A study of Mus musculus with 2 samples.

Results

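Peaks of accessible chromatin were examined at 5 mouse genes, Cwc22, Sfi1, Glo1, Btbd9 and Dnah8, which were taken up as candidate loci for extra copies absent from the reference genome. The members are the peaks that overlap the RefSeq span of a gene or the 50 kb on each side of it: 168 of the 87174 peaks deposited for the series. Of these, 5 lay at Cwc22 on chromosome 2, 4 at Sfi1 on chromosome 11 and 159 at the neighbours Btbd9, Glo1 and Dnah8 on chromosome 17. The genes were chosen by the width and density of these same peaks, so both are given below as a description, with no test. The peaks came from single-nucleus ATAC-seq, in which a transposase tags open DNA in nuclei that are barcoded in droplets, and were taken from wild-type striatum at E14.5, a stage in the middle of gestation. The 2 libraries form 1 group, carry no mutation or treatment in their labels, and have the strain background "C57BL/6J and CD1". C57BL/6J is the inbred strain of the reference genome, whereas CD1 is an outbred stock.

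The deposited file is 1 list for both libraries and gives nothing beyond positions in mm10. How deeply each library was read and whether both share a peak are unknown, and no value below has a replicate error. Since no source says whether starts count from 0 or 1, any position below may be shifted by 1 base. All 12 striatal and ganglionic eminence markers examined, Dlx1, Dlx2, Meis2 and Six3 among them, had a peak at a gene end, as did 2 of 6 liver, 2 of 4 skeletal muscle and 2 of 4 erythroid genes. Alb, Ttr, Myh1 and Hba-a1 had none.

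Segmental duplications are long stretches of a genome present in more than 1 copy, and their copy number can differ between strains of a species. When a sequenced animal carries copies that the reference lacks, reads of all copies align to the single reference copy and raise the read depth over its whole length, in open and closed chromatin alike. Cwc22 lies in such a duplication, known as R2d, of which some mice carry further copies elsewhere on chromosome 2 and which has been studied for its biased transmission by females. Glo1 lies in a tandem duplication found in some inbred strains and not in C57BL/6J, which has been studied for anxiety-like behaviour. A list of positions alone cannot tell extra copies and more accessible chromatin apart, and copy number was not tested.

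Promoters of the members were compared with the peaks first, because a promoter is where a peak is found at many active genes. RefSeq promoter sequences (GRCm38.p6, the assembly of mm10, 250 bases before to 50 after the start) matched 3 of the 5 genes, Cwc22, Glo1 and Dnah8. That of Glp1r is added since the dense stretch on chromosome 17 ends inside this gene. Each is printed 5′ to 3′ on the strand of the gene, with capitals marking 4 motifs searched on both strands: CCAAT (the CCAAT box), GGGCGG (the GC box), TATAAA (the TATA box) and ACTACAA, a part of an element known from promoters bound by ZNF143.
Cwc22, chr2:77946307-77946606, minus strand: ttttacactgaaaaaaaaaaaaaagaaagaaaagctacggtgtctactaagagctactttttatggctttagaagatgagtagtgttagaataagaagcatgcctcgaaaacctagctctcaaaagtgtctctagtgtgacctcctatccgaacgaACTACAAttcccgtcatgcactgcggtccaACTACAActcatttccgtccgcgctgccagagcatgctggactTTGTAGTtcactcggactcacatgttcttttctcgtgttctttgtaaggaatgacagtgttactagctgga
Glo1, chr17:30612610-30612909, minus strand: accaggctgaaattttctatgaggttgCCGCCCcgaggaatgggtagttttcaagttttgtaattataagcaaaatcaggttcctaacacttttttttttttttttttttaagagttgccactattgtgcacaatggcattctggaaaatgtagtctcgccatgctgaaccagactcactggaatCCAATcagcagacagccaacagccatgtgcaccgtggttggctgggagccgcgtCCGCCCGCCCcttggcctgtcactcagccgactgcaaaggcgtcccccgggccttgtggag
Dnah8, chr17:30626686-30626985, plus strand: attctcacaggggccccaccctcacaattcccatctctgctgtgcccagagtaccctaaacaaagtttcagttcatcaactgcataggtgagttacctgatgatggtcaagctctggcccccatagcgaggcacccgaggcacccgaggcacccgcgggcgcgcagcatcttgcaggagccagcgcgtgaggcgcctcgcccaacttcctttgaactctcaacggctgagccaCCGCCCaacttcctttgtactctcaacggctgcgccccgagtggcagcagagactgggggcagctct
Glp1r, chr17:30901617-30901916, plus strand: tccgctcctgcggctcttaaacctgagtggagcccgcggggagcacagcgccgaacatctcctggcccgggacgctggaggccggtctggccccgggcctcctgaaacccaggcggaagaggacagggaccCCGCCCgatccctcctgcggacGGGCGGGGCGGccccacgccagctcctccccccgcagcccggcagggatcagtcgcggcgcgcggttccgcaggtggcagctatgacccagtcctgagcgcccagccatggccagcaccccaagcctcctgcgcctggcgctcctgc

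The Cwc22, Glo1 and Glp1r promoters were covered over 100% of their length, by peaks of 64767, 4371 and 6082 bp, whereas no peak overlapped that of Dnah8. The nearest peaks to the Dnah8 promoter ended 7207 bp below it and began 8274 bp above it. A peak overlapped 51.4% of the 32851 promoters in the RefSeq table. The Dnah8 promoter nevertheless held 16 CpG dinucleotides and the uncovered promoters of the table a median of 3. The covered ones held 11 at Cwc22, 11 at Glo1 and 29 at Glp1r, against a median of 20 among all covered promoters. ACTACAA occurred 3 times in the Cwc22 promoter, and 3.24% of the promoters in the table hold it at least once and 0.0122% at least 3 times. GGGCGG occurred 3 times at Glo1, where 2 matches overlap, 3 times at Glp1r, also with an overlap, and 1 time at Dnah8, and 35.7% of promoters hold it at least once and 10.7% at least 3 times. CCAAT occurred 1 time, at Glo1 (37.4% of promoters), and TATAAA in none of the 4 (13.6% of promoters). Nothing follows from a match about the binding of a factor.

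Cwc22 was buried under wide peaks that went on far beyond the gene, and with flanks of 50 kb Cwc22 had the highest covered share of all 21774 protein-coding loci. Cwc22 encodes a splicing factor that brings the RNA helicase Eif4a3, a core protein of the exon junction complex, to the spliceosome. Peaks covered 67.1% of its locus (gene span 77881159 to 77946356 with 50 kb on each side). The median protein-coding locus was covered over 4.26% (quartiles 1.58 and 8.30%), and the next highest locus, Lsmem2, over 44.1%. Over the gene span alone the covered share was 99.01%, which ranked 220 among gene spans without flanks. With flanks of 10 kb Cwc22 ranked 3, and with 100 kb it ranked 1. The number of peaks, in contrast, was ordinary: 5 peaks, or 30.3 per Mb (exact 95% Poisson interval 9.83 to 70.6, for counting of peaks only), against a median of 45.8 per Mb over protein-coding loci.

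The 5 peaks of the Cwc22 locus lay in a row between 77869607 and 77995765. The lowest, of 2030 bp, ended 1001 bp before a peak of 13840 bp (77872638 to 77886478) that reached over the lower gene end. After 643 bp followed a peak of 64767 bp, from 77887121 to 77951888, which was the widest of all 87174 peaks. The second widest in the whole list, of 26231 bp, lay on chromosome 7 over Mir9-3hg, the host gene of a brain microRNA. The peak at Cwc22 covered the remainder of the gene, its promoter included, and reached past the promoter end. A peak of 4626 bp (77959204 to 77963830) covered the pseudogene Gm13726. A peak of 25662 bp (77970103 to 77995765) ranked 3 by width in the list and overlapped no annotated gene. The Cwc22 region thus held the peaks ranked 1 and 3 by width, and that ranked 2 was elsewhere.

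The window of 50 kb stopped inside the covered stretch. The last peak in it ended at 77995765, just short of the window's end at 77996356, and a peak of 839 bp began just past it, at 77996813. Peaks of 8521 bp (from 78004061) and 7462 bp (78019813 to 78027275) followed. The 8 peaks from 77869607 to 78027275 were separated by gaps of 643 to 7316 bp and covered 81.0% of 157.7 kb. Below this stretch 52098 bp were free of peaks, down to a peak at the upper end of Zfp385b, and above it 20816 bp, up to a peak of 1831 bp at the non-coding gene Gm52519. Of the 50 kb just inside the lower edge 96.7% was covered, against 0% of the 50 kb just outside it.

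Scored by bases covered, the stretch ran from 77869607 to 78060069, with 10 peaks over 190.5 kb and 68.3% of it covered. At its upper edge coverage tapered, with 24.7% of the 50 kb inside and 1.70% of the 50 kb outside covered. The windows behind this were 50 kb long, and those at or above the genome-wide 99th percentile, 11502 covered bases, were joined. Of the same length of chromosome below it 2.33% was covered, and of that above it 1.87%. The median peak width was 6044 bp in the stretch, 563 bp in the flank below and 583.5 bp in the flank above. Peaks wider than 4000 bp made up 6 of the 10 peaks and 124.9 kb of covered sequence, and there were none in either flank. At least 1 of the windows at Cwc22 was covered over 100% of its length, and the median window of the genome over 477 bases.

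**Figure D1:**
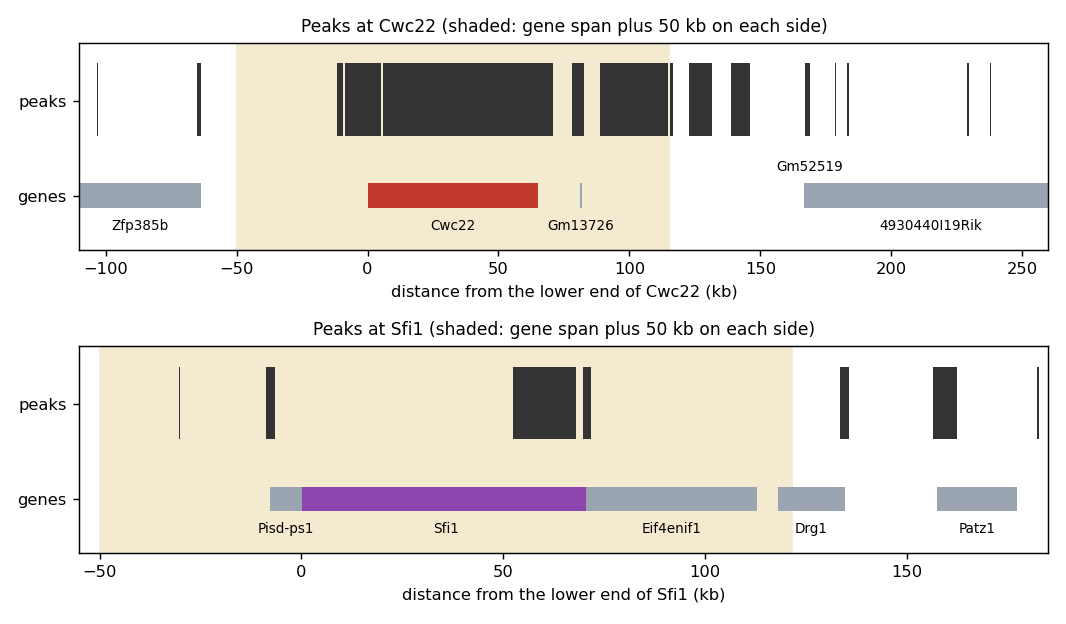
Peaks (black) and genes (coloured or grey) along the Cwc22 and Sfi1 loci, drawn to scale by distance from the lower gene end in kb, with the gene span plus 50 kb shaded. Wide peaks cover 99.01% of Cwc22 and go on above the shaded window, whereas at Sfi1 a peak of 15764 bp lies near the upper gene end.

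At Sfi1 a single wide peak lay near the upper gene end, while most of the gene held none. Sfi1 encodes a centrin-binding protein of centrosomes, made of many repeats, which in yeast serves the duplication of the spindle pole body. On chromosome 11, the peak from 3184197 to 3199961 measured 15764 bp, ranked 15 by width in the list and covered the pseudogene Fau-ps2 within the Sfi1 span (3131850 to 3203347). A peak of 1833 bp (3201650 to 3203483) followed after 1689 bp. It lay over the upper end of Sfi1, the predicted gene Gm51877 and the lower end of Eif4enif1, which encodes a transporter of the translation factor eIF4E. Below the 15764 bp peak 58900 bp were free of peaks, which took up most of Sfi1, and above the 1833 bp peak 61709 bp were free, up to a peak at Drg1.

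The Sfi1 locus held 4 peaks, or 23.3 per Mb (exact 95% Poisson interval 6.35 to 59.7), and 11.7% of it was covered, against medians of 45.8 per Mb and 4.26% over protein-coding loci. By covered share it ranked 3170 of 21774. The other members were a peak of 2359 bp at the lower end of the pseudogene Pisd-ps1 and a peak of 95 bp at 3101633, the first on the chromosome. The covered share was 24.4% over the gene span alone, and 2.50% in the locus once the widest peak was left out. The 2 upper peaks covered 91.2% of 19.3 kb, and no peak lay in the same length of sequence on either side. A stretch is given from the start of its first to the end of its last peak, so the edges of isolated peaks are abrupt by that rule. Of all gaps in the list, 51.9% exceeded 10 kb. The values at Sfi1 thus say nothing particular about its edges. At Cwc22, 96.7% of the 50 kb inside the lower edge was covered and 0% of that outside. The upper edge of Cwc22 depended on the setting and tapered in 50 kb windows of bases covered. In 20 kb windows of bases covered and by chained peaks, the Cwc22 stretch ended at 78027275, before 20816 bp without a peak.

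Around Btbd9, Glo1 and Dnah8 the pattern was the reverse: many peaks of ordinary width, spread over a long stretch. Btbd9 encodes a BTB domain protein tied to restless legs syndrome in human genetics, Glo1 the enzyme glyoxalase 1, which detoxifies methylglyoxal, and Dnah8 an axonemal dynein heavy chain of sperm tails. Dnah8 had 88 peaks, or 252 per Mb of locus (202 to 311), and ranked 21 of 21774 protein-coding loci. Glo1 had 27 peaks, or 225 per Mb (149 to 328), and ranked 44. Btbd9 had 83 peaks, or 178 per Mb (142 to 220), and ranked 204. These ranks depended on the flanks. Without flanks Dnah8 ranked 2066, Glo1 1619 and Btbd9 3818. With 10 kb they ranked 198, 117 and 1094, and with 100 kb they ranked 2, 3 and 110. The intervals are exact 95% Poisson intervals, and the median locus had 45.8 per Mb. The loci overlap: 22 of the peaks at Glo1 were counted at Btbd9 too (81.5% of those at Glo1, 26.5% of those at Btbd9), 17 at Dnah8 too (63.0% of those at Glo1, 19.3% of those at Dnah8), and 12 belonged to all 3.

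Covered shares were less extreme than peak numbers. Peaks covered 29.0% of the Dnah8 locus (rank 145), 23.6% of that of Glo1 (rank 380) and 20.2% of that of Btbd9 (rank 710), against a median of 4.26%. The 3 loci lay far to the right in the plot of peak number against coverage, among other loci of like density, while Cwc22 stood apart above all loci at its peak number. Sfi1 was also high in coverage for its number of peaks.

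**Figure D2:**
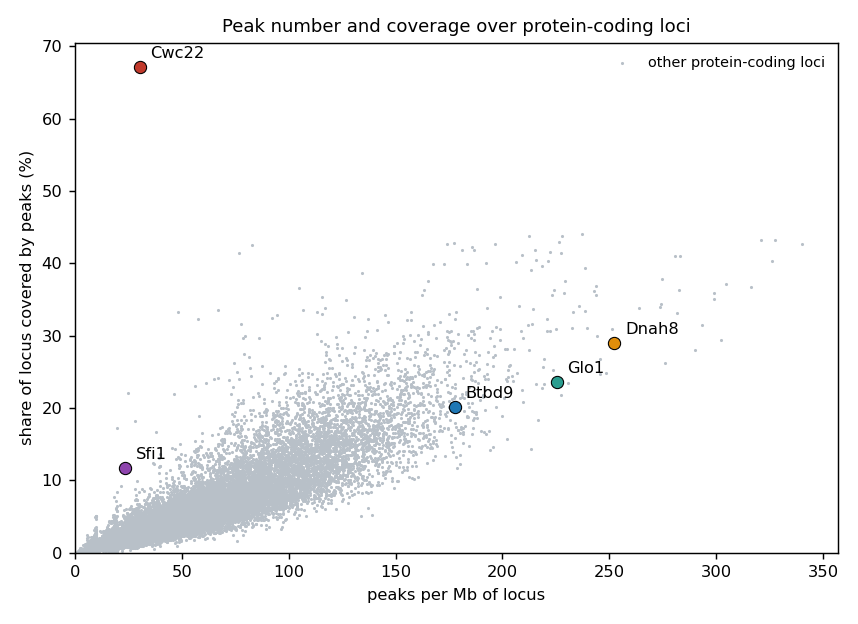
Share of each protein-coding locus covered by peaks (%) against its number of peaks per Mb, 1 point for each of 21774 loci, with the 5 members in colour. Cwc22 lies at 67.1% with 30.3 peaks per Mb, and Dnah8 at 29.0% with 252 peaks per Mb.

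By the run rule that follows, high density started inside Zfand3, below Btbd9, and stopped inside Glp1r, above Dnah8. Dense runs were found from peak midpoints in windows of 50 kb moved in steps of 1 kb. Windows with 9 or more, the genome-wide 99th percentile, were joined, and 1034 runs resulted. The region held 3 of them. The first had 27 peaks over 130 kb, from 30155574 in Zfand3 to 30285642 in Btbd9, and the second 11 peaks over 50.9 kb within Btbd9, from 30340756 to 30391658. Among the 1034 runs the first ranked 87 by peaks and 207 by covered bases, and the second 556 and 963. The third had 120 peaks over 475 kb, from 30448842 in Btbd9 over Glo1 and Dnah8 to 30924029 in Glp1r. It was the longest of the 1034 runs, had the most peaks of them and ranked 2 by covered bases. This order depended on the rule. At the 95th percentile the matching run ranked 5 by peaks and 15 by length, in 100 kb windows 1 and 3, and with peaks chained at gaps up to 20 kb 2 and 3. In 20 kb windows it was split near the start of Dnah8, and the upper part ranked 2 by peaks and 3 by length. In chains with gaps up to 10 kb it was split into 3, none of which ranked above 6 by peaks. The windows' highest count in the region, 20 midpoints in 50 kb of Dnah8 from 30795930, equalled the highest of the whole genome, whose median window held 1.

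A gap lay near each edge, but the gaps of 36089 and 43888 bp inside the stretch, in Btbd9, were longer. In the lower run 2 narrow peaks, of 153 and 228 bp, lay first, followed by 28928 bp without a peak, and dense spacing began at 30187508 with a peak of 1618 bp. Runs at a stricter percentile, in 20 kb windows, by chained peaks and by bases covered likewise began at 30187508. At the 95th percentile and in 100 kb windows the first run began earlier, at 30116051, and with peaks of 100 bp or wider at 30155574. By the interval of greatest Poisson likelihood, density rose only at 30474501, inside Btbd9. With the rule's 50 kb below Btbd9, the peaks at 30155574 and 30158352 lay just outside and that at 30187508 was the first inside. At the upper edge a peak of 599 bp ending at 30924029 was followed by 21667 bp without a peak, and it was also the last within 50 kb of Dnah8. Runs at the 95th percentile, in 100 kb windows and by bases covered in 50 kb windows went past this gap, to 30954804. With peaks of 100 bp or wider the run ended at 30945846. Both of these ends lie above Glp1r. The 50 kb just inside 30924029 held 12 peaks and were covered over 57.1%, against 3 peaks and 1.82% in the 50 kb just outside. Counted from 30155574, the change at the lower edge was smaller, with 9 peaks inside and 4 outside, and 13 and 2 in the next 50 kb on each side. That count takes in the gap of 28928 bp, which lies inside this edge. The 50 kb window centred 55 kb above 30155574, which starts near the end of that gap, held 16 midpoints and was covered over 26.2%. The window centred 5 kb above 30155574 held 3 and was covered over 4.14%.

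Across the whole stretch, from 30155574 to 30924029, 161 peaks lay in 768 kb, or 210 per Mb, and covered 23.5% of it. The same length below held 66 peaks (85.9 per Mb, 9.13% covered) and that above 69 (89.8 per Mb, 7.66% covered). Both flanks were thus above the median locus too. Inside the stretch the density was not even. Gaps of 36089 and 43888 bp, both in Btbd9, separated the 3 runs, and a gap of 15781 bp lay over the start of Dnah8.

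**Figure D3:**
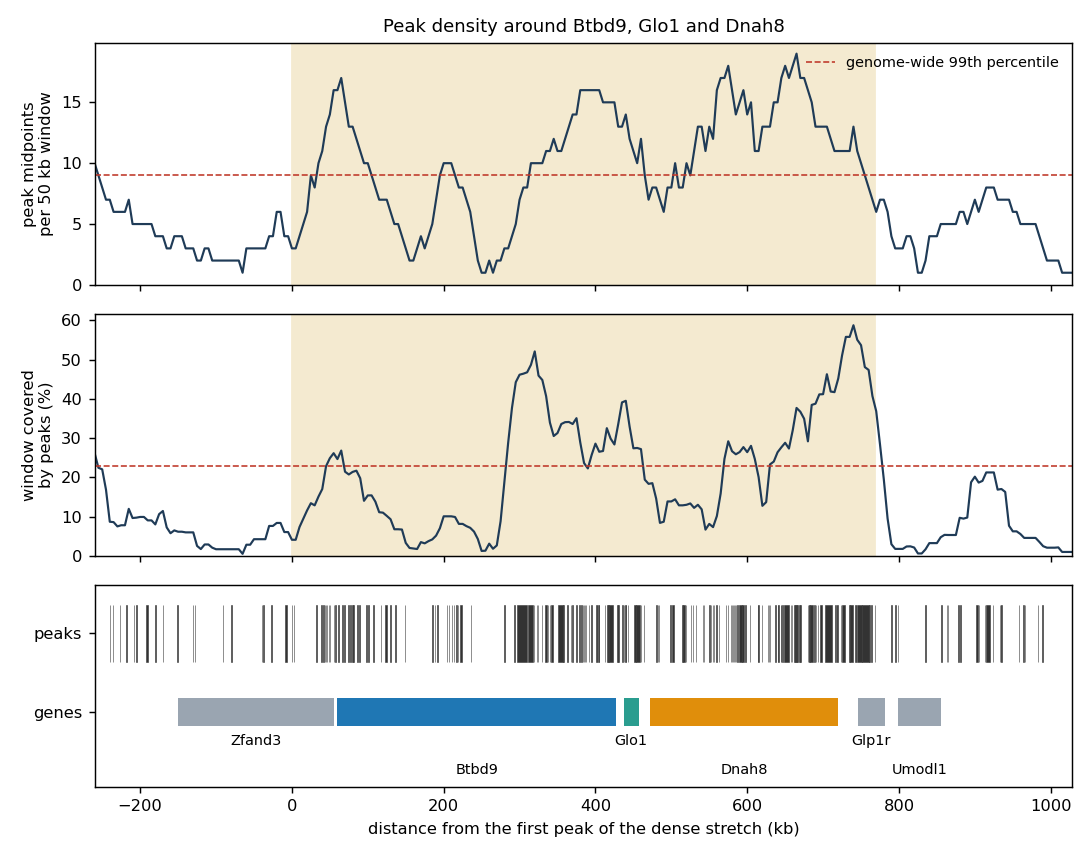
Peak midpoints per 50 kb window and share of the window covered by peaks (%), with peaks and genes below, by distance in kb from the first peak of the dense stretch (shaded) and with the genome-wide 99th percentile dashed. Counts fall below the line at gaps of 36089 and 43888 bp in Btbd9, over the first part of Dnah8 and past the last peak of the stretch, in Glp1r.

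Along the stretch each gene had its own profile. Btbd9 (30215524 to 30582621) held 62 peaks in its span, or 169 per Mb. From the lower to the upper end of Btbd9, 4 equal parts held 17, 11, 9 and 26 peaks and were covered over 15.6, 6.22, 26.8 and 31.0%. The 9 peaks of the part above the middle included the widest of the region, 13352 bp from 30452492, which ranked 23 in the whole list, and its neighbour of 6735 bp after a gap of 575 bp. Both lay inside the gene and away from its ends.

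Glo1 (30592861 to 30612659) held 6 peaks in its span of 19.8 kb, or 303 per Mb, and 42.9% of it was covered. Its widest peak, of 4371 bp, lay over the promoter end, and 2 peaks lay within 1000 bp of the other end. The 10.2 kb between Btbd9 and Glo1 held 3 peaks (35.4% covered), and the 14.3 kb between Glo1 and Dnah8 were touched by 3 (11.2% covered).

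Dnah8 (30626935 to 30875762) held 65 peaks, or 261 per Mb, although its promoter end had none. From the promoter end on, 4 equal parts held 11, 19, 17 and 19 peaks and were covered over 12.9, 21.2, 22.1 and 37.9%. A peak of 8842 bp from 30858509, ranked 93 in the whole list and close to the end opposite the promoter, was the widest in the Dnah8 span. The narrowest 3 peaks of the stretch, of 19, 14 and 3 bp, also lay in Dnah8.

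The neighbours at the edges were partly inside the stretch. Zfand3, a zinc finger gene, had 11 peaks over the part inside the stretch (199 per Mb, 12.7% covered) and 9 over the part below it (59.8 per Mb, 4.33% covered). Glp1r, the gene of the receptor for glucagon-like peptide 1, had 5 peaks over the part inside (76.7% covered) and none over the remaining 12.5 kb. Between Dnah8 and Glp1r, 26.1 kb held 7 peaks (40.4% covered). The Glp1r peaks of 6082 and 8796 bp were separated by 572 bp. Umodl1, the next protein-coding gene above Glp1r, had 2 peaks in its span (0.862% covered).

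Peaks on chromosome 17 were typical in width and tightly spaced. The median width was 566 bp over the 161 peaks and 565 bp over peaks outside the 3 stretches described. The quartiles were 272 and 1104 bp in the stretch and 363 and 1135 bp outside. Both ends of the range were fuller in the stretch: 8.70% of its peaks were narrower than 100 bp and 6.21% wider than 4000 bp, against 5.44% and 1.40% outside. In all other dense runs, which held 15556 peaks, the median width was 667 bp, with 6.47% narrower than 100 bp and 3.04% wider than 4000 bp. The median gap between neighbours was 2153 bp in the stretch, against 10758 bp outside, and 48.8% of gaps were shorter than 2 kb, against 15.5%. The smallest gap of the stretch, 502 bp, was close to the smallest of the whole list, 501 bp. No source states whether closer peaks were joined, so a wide peak need not be open throughout.

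**Figure D4:**
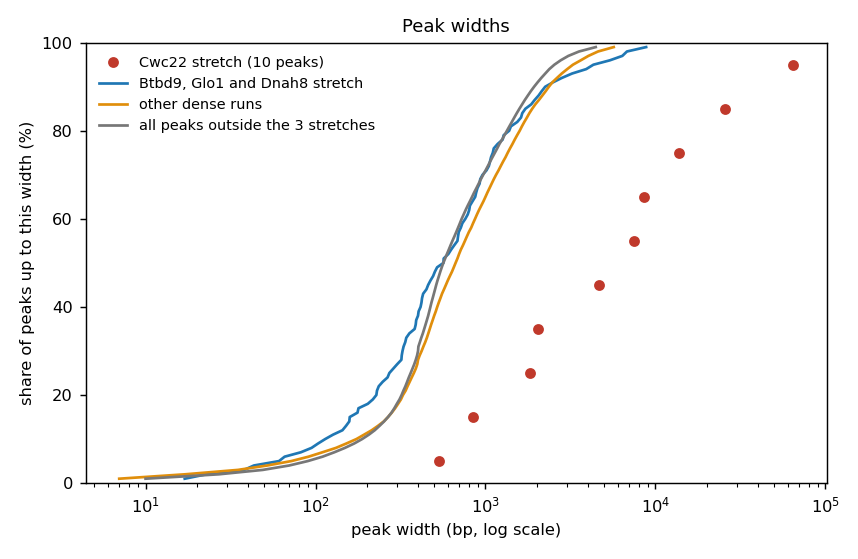
Share of peaks (%) up to a given width (bp, log scale) for the stretches at Cwc22 (10 peaks, each a point) and at Btbd9, Glo1 and Dnah8, the other dense runs, and all peaks outside the 3 stretches. The chromosome 17 curve crosses that of all other peaks near their medians of 566 and 565 bp, and the points of Cwc22 lie to the right, with a median of 6044 bp.

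Few of the dense peaks on chromosome 17 lay at gene ends. Much of that stretch lies inside the long genes Btbd9 (367 kb) and Dnah8 (249 kb). The shares that follow were not adjusted for how many gene ends a stretch holds. Of the 161 peaks on chromosome 17, 10 lay within 1000 bp of either end of an annotated gene, or 6.21% (exact 95% binomial interval 3.02 to 11.1, for counting only), against 23.4% (23.2 to 23.7) of peaks outside the stretches and 22.5% in the other dense runs. With a window of 2500 bp the share was 10.6% there and 31.5% over all peaks. Among peaks wider than 4000 bp, 3 of 10 in the chromosome 17 stretch and 3 of 6 in the Cwc22 stretch lay at a gene end, against 80.7% of the 1237 such peaks in the list. The 5 genes themselves all had a peak at a gene end, as had 67.3% of protein-coding genes. Cwc22 had them at both ends, Glo1 at both, Sfi1 and Dnah8 at the upper end only and Btbd9 at the lower end only. At Dnah8 the upper end lies opposite the promoter.

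By the run rules, 3 of the 5 members overlapped a dense run of peak midpoints, against 16.7% of protein-coding loci, and all 5 a run by bases covered, against 14.9%. The genes were chosen for such values, so these counts describe the choice. Runs by bases covered were added after seeing the data. The one at Sfi1, of 2 peaks, ranked 656 of 658 by peaks and by length. Btbd9, Glo1 and Dnah8 share peaks, so their calls are not separate. At Cwc22 the richest window held 4 midpoints and at Sfi1 2, under the limit of 9.

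Other genes of like function had fewer peaks per Mb than Dnah8, Glo1 and Btbd9, and higher medians than Cwc22 and Sfi1. The medians that follow are taken without the members. Dnah8 had 252 peaks per Mb, against a median of 22.9 over 14 other axonemal dynein heavy chain genes, of which Dnah2 was highest with 105, followed by Dnah1 with 60.4. Glo1 had 225 per Mb, against a median of 70.9 over 5 other genes of the glyoxalase group, with 142 at Haghl and 81.1 at Glod4. Btbd9 had 178 per Mb, against a median of 79.0 over 13 other BTB domain genes, with 152 at Btbd6 and 144 at Btbd17. In covered share these genes stood apart less: Dnah8 was covered over 29.0% and the highest other dynein gene over 18.8%, Glo1 over 23.6% and Haghl over 21.9%, and Btbd9 over 20.2% and Btbd6 over 21.5%. Cwc22, in contrast, had 30.3 per Mb, against a median of 81.2 over 12 other exon junction and spliceosome genes, led by Cwc25 with 124, Magoh with 111 and Casc3 with 105. Its covered share of 67.1% stood against a highest share of 21.7% in this group, at Casc3. Sfi1 had 23.3 per Mb, against a median of 46.5 over 7 other centrin and centrin-partner genes, of which Fam161a was highest with 57.5, followed by Cetn3 with 51.5 and Cetn4 with 48.2. Its covered share was 11.7%, against a highest share of 6.89% there, at Fam161a. The median over all protein-coding genes was 45.8 peaks per Mb.

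Other genes of mouse regions known for duplication or for copy number that differs among strains were poor in peaks. Of 23 such genes 22 were found, and 12 of them had no peak in their locus, against 3076 of the 21774 protein-coding loci. Those without a peak included Klra4 and Klra8 of the natural killer receptor family, Mup20 of the major urinary proteins and Nlrp1b. The median was 0 peaks per Mb, and the highest values were 68.6 at Fgfbp3, 66.3 at its neighbour Ide, which encodes the insulin-degrading enzyme, and 58.9 at Hjurp, a centromere factor gene. None of the 22 overlapped a dense run, against 16.7% of protein-coding loci for runs of midpoints and 14.9% for runs by bases covered. A gene-end peak was found at 3 of the 22, against 67.3% of protein-coding genes. No source states how reads that match several copies were handled, and the part of such reads in these values was not tested.

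**Figure D5:**
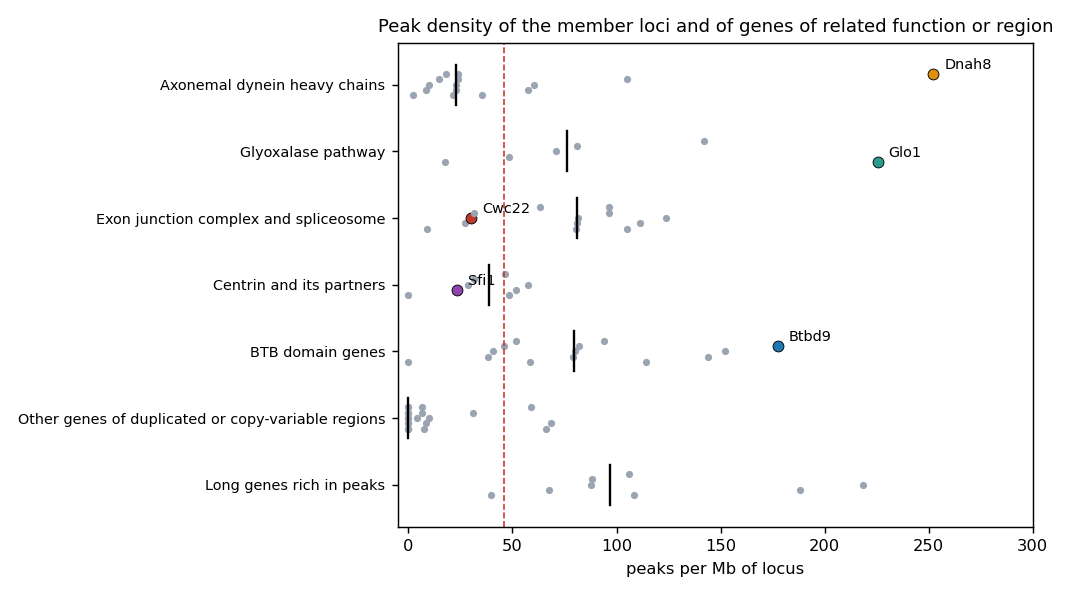
Peaks per Mb of locus for genes of related function or region, 1 point a gene, with list medians (members included) as black bars, the median of all protein-coding genes (45.8) dashed and the 5 members in colour. Dnah8, Glo1 and Btbd9 lie highest in their lists, and Cwc22 and Sfi1 below their list medians.

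Of the other 1031 runs of peak midpoints, 37 were at least as dense as the longest run on chromosome 17 (253 per Mb). Among them were runs of 42 peaks in 160 kb over Hoxc4 and its neighbours, 35 in 131 kb over Hoxb1 and its neighbours and 31 in 115 kb over Hoxd1 and its neighbours. A run of 21 peaks in 82.7 kb lay at Notch2. Each of these Hox runs overlapped 9 or 10 protein-coding genes. The run on chromosome 17 held 120 peaks in 475 kb, whereas the longest other runs held 94 peaks in 412 kb at Gse1, 85 in 404 kb over 20 protein-coding genes that include Sema3f and Gnai2, and 85 in 380 kb at Msi2. Its covered share was 32.0%, against 40.9, 30.9 and 23.0% in those 3 runs.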

How the data were processed

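Single-nucleus ATAC-seq libraries from striatum were made with 10x Genomics Chromium reagents, per the labels' protocols. Per the submitters' processing notes, Cell Ranger ATAC (version 1.2.0) and Signac were the tools, with roles not given, and the genome build was mm10. The authors deposited 1 list of 87174 peak positions for 2 libraries in 1 group. The peak caller, the pooling of libraries, the handling of reads with several matches and the treatment of doublets are not given in the sources used here. Depth is unknown.

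Genes came from a RefSeq table of GRCm38.p6. Of 49997 entries, 402 on scaffolds or with repeated symbols were left out. The table gives no strand, and strand is known only where a promoter sequence was matched. Widths are end minus start. Python 3.11.15, pandas 2.3.3, NumPy 2.4.6 and SciPy 1.17.1 were used. The run rules were checked on simulated data with planted stretches of many peaks of ordinary width. The other simulated peaks were scattered at random, without the clustering of the real list. A median edge error under 50 kb was accepted, so the exact positions of edges were not checked. No stretch of few wide peaks was planted, so edges like those at Cwc22 and Sfi1 were not checked. The genes named are the 5 members, protein-coding genes within 50 kb of their stretches, the 3 densest of each list, and the genes of other runs as dense, of which 1 run is not reported here. Markers, pseudogenes, non-coding genes beside the peaks, the longest other runs and examples without peaks were named after their values were seen. Members and lists were chosen with earlier results of these data known, and the list of long genes rich in peaks was taken from them. In that list Gse1 had 219, Msi2 188 and Auts2 109 peaks per Mb. Windows scored by bases covered, covered shares under other flanks or without the widest peak, and the least number of 5 peaks in a chain were chosen after seeing the data.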

Additional observations from a re-analysis of the deposited data

How the results depend on the processing

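With peaks wider than the median of the list only, densities were 108.5 per Mb at Glo1, 98.5 at Btbd9 and 118 at Dnah8. A cut at the median removes many peaks at most loci, so this fall was built into the setting. The ranks among all loci under the same cut were 400, 656 and 257, against 44, 204 and 21 with all peaks. The 3 runs on chromosome 17 held 158 peaks. Other windows, chaining, a likelihood interval and peaks of 100 bp or wider gave 117 to 168, bases covered in 50 kb windows 133 and in 20 kb windows 105. The likelihood interval began later, at 30474501, and ended at the same peak. Its best intervals at Cwc22 and Sfi1 lay outside their loci. Cwc22 and Sfi1 had 0 peaks in runs of midpoints. At Cwc22, 8 peaks were chained at gaps up to 10 or 20 kb, and bases covered gave 10 in 50 kb and 8 in 20 kb windows. At Sfi1 bases covered gave 2 in both. The covered share fell to 27.9% at Cwc22 and 2.50% at Sfi1 without the widest peak. It was 24.4% at Sfi1 and 42.9% at Glo1 with no flank, and 21.8% at Sfi1 with a flank of 10 kb. No paired analysis was possible because both libraries share 1 list, and leaving out a library was not possible for the same reason.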
